A study of Mus musculus with 9 samples.

Results

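Transcripts of the receptors for glial cell line-derived neurotrophic factor (GDNF) and for the neurotrophins were examined in embryonic mouse midbrain dopamine (DA) neurons with normal or reduced Dot1l. The 8 genes, chosen by symbol out of 47729 genes in the count files, were the GDNF receptor genes Ret, Gfra1 and Gfra2, the neurotrophin receptor genes Ntrk2, Ntrk3 and Ngfr, and the ligand genes Bdnf and Gdnf. All embryos carried Cre in the Pitx3 locus (Pitx3-Cre/+) and the reporter Rosa-lox-stop-lox-Yfp on a C57/Bl6 background, and YFP-positive midbrain neurons were sorted at E15.75, late in embryonic development. Pitx3 is a transcription factor of midbrain DA neurons, so Cre acts after these cells leave the cell cycle. The groups differed in Dot1l, which encodes a histone H3 lysine methyltransferase: Dot1l(+/+) had no floxed allele (3 libraries), Dot1l(fl/+) had 1 (3 libraries) and Dot1l(fl/fl) had 2 (2 libraries analysed here). Per the study's text each library pooled 3 or 4 embryos, taken as litter-matched sets of the genotypes, and Cre removes exon 5 of the floxed allele. No label says which litter a replicate number stands for, so the genotypes were compared without pairing. They are written +/+, fl/+ and fl/fl from here on.

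GDNF family ligands bind a GFRα co-receptor held on the cell surface, and the complex then activates the receptor tyrosine kinase RET. The neurotrophins act through Trk receptor tyrosine kinases, with BDNF binding TrkB (Ntrk2) and neurotrophin-3 binding TrkC (Ntrk3), while the p75 receptor (Ngfr) binds all of them. Both systems are textbook trophic inputs to midbrain DA neurons, GDNF being made mainly by their striatal targets.

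Library totals ranged from 13616922 to 43674673 counts, with the lowest 2 totals in the fl/fl group. Dot1l itself was at 84.6 to 105 CPM (counts scaled by TMM-adjusted library size) in +/+ and at 65.6 to 76.2 CPM in fl/+. In fl/fl 1 it was at 64.9 CPM, but in the library labelled fl/fl 2 it was at 99.1 CPM, within the +/+ range. A whole-gene count does not measure the loss of a single exon, so this does not check the deletion, and each direction drawn below in fl/fl against +/+ for the 7 of these 8 genes that could be tested is also given without that library. DA neuron markers were abundant: Th, the rate-limiting enzyme of dopamine synthesis, was at 649.5 to 1047 CPM, Slc6a3, the dopamine transporter, at 607 to 826 CPM, Nr4a2, a DA transcription factor, at 524 to 742 CPM, and Pitx3 at 188 to 237 CPM. The 10 DA markers summed to 5147 to 5684 CPM in +/+, 4884 to 5391 CPM in fl/+ and 4238 to 4863 CPM in the libraries labelled fl/fl. In the latter, 7 of the 10 lay below every +/+ library and 0 above, beside 11.6% and 12.1% of the 17988 genes tested.

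Among markers of other cells, GABAergic and red blood cell lists had higher sums in the libraries labelled fl/fl. The 5 GABAergic markers summed to 204 to 224 CPM in +/+, 196 to 230.0 CPM in fl/+ and 235 to 264 CPM in the libraries labelled fl/fl. There 1 of 5, the vesicular transporter Slc32a1, lay above every +/+ library and 0 below, beside 12.1% and 11.6% of the 17988 genes tested. The 5 red blood cell markers summed to 11.2 to 14.3, 10.4 to 17.0 and 14.3 to 28.4 CPM in the same order, with a gap between the first and last ranges smaller than the rounding, and with Hbb-bs at 16.6 CPM in the library labelled fl/fl 2 against at most 8.70 CPM elsewhere. For the other 10 lists the sums overlapped between +/+ and the libraries labelled fl/fl. Leading genes of these lists had median levels of 193 CPM (Slc17a6, glutamatergic), 165 CPM (Vim, radial glia), 36.0 CPM (Csf1r, microglia) and 4.30 CPM (Pou4f1, sensory neuron). Slc18a3 (cholinergic), Pecam1 (endothelium), Rgs5 (pericyte), Slc6a4 (serotonergic) and Pax7 (skeletal muscle) had medians between 0.521 and 2.65 CPM, and Phox2a, Mnx1, Foxd3 and Tnnt3 were at 0 in all 8 libraries.

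Per length, the GDNF co-receptor Gfra1 and the kinase Ret stood at the top of the 8 genes in every genotype. Levels between genes were compared as CPM per kilobase of exonic sequence. Over the 8 libraries Gfra1 spanned 69.7 to 89.9 and Ret 62.3 to 87.9 CPM per kilobase, so this pair did not differ beyond its spread. Gfra2, the preferred co-receptor of neurturin, followed at 10.2 to 16.9 CPM per kilobase and overlapped with Ntrk2 at 8.63 to 10.8. Below them lay Bdnf at 2.57 to 5.32, Ngfr at 1.55 to 3.11 and Ntrk3 at 1.60 to 2.53 CPM per kilobase, each overlapping with its neighbour. The gap between Ret and Gfra2 and that between Ntrk2 and Bdnf were wider than the spread over libraries. Gdnf was last, at no more than 0.157 CPM per kilobase.

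The order within the middle of the scale depended on the length used. Ntrk2 and Ntrk3 have long exonic sequences of 19292 and 30170 bases, which add up alternative ends, and principal transcripts of 8744 and 19703 bases. With the principal transcript as the length, a choice made after seeing the data, Ntrk2 was at 19.0 to 23.7 CPM per kilobase, above Gfra2 at 10.4 to 17.2 with no overlap, and Ntrk3 at 2.46 to 3.88 overlapped with both Bdnf (3.75 to 7.75) and Ngfr (1.55 to 3.11). Ret (77.2 to 109 CPM per kilobase) and Gfra1 (82.2 to 106) again overlapped. Counts per gene do not separate full-length from truncated TrkB and TrkC, which lack the kinase domain.

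**Figure D1:**
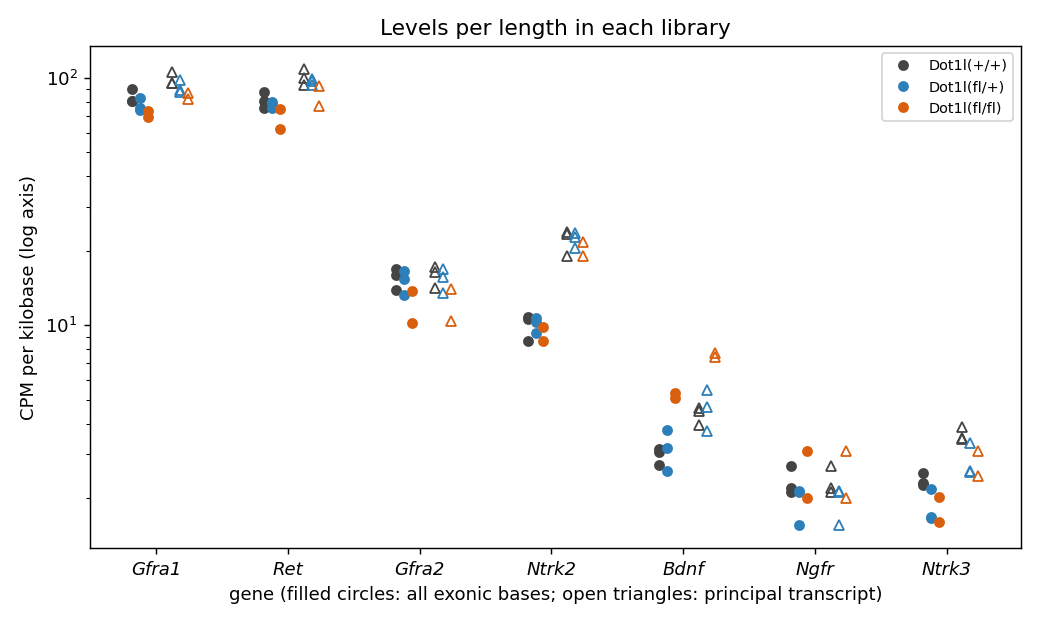
Levels per length of 7 genes in each of the 8 libraries, on a log axis in CPM per kilobase. Colours give the genotype, filled circles use all exonic bases and open triangles the principal transcript; Gfra1 and Ret sit at 62.3 CPM per kilobase or above, and every other gene below 24 on both lengths.

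Across genotypes, Bdnf was the gene with the widest difference, higher in both libraries labelled fl/fl than in the 6 others, while Ret, Gfra1, Gfra2 and Ntrk3 had slightly lower values there than in +/+. None of the 7 genes tested passed the threshold of an adjusted p of 0.05 in edgeR's quasi-likelihood test in any of the 3 comparisons; Gdnf was under the filter on low counts. Over all 17988 genes tested, edgeR likewise called 0 genes (0.0%) in each comparison, with an unadjusted p under 0.05 for 1667 genes in fl/fl against +/+, 903 in fl/+ against +/+ and 723 in fl/fl against fl/+. DESeq2, run as an alternative, called 197, 0 and 1 genes in these comparisons. None of the 7 was among them, although DESeq2 gave no adjusted p for Bdnf and Ngfr in fl/fl against +/+. The comparisons share libraries, so their values for a gene are not independent. In sorted bulk RNA, fewer cells of a type and less RNA per cell cannot be told apart.

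In fl/fl against +/+, 1 of 7 genes (Bdnf) was higher at an unadjusted p under 0.05, where 4.24% of all genes tested were, and 4 of 7 (Ret, Gfra1, Gfra2 and Ntrk3) were lower, where 5.03% of all genes were. Without the library labelled fl/fl 2, which leaves 1 fl/fl library, 1 of 7 (Bdnf) was higher, beside 4.48% of the genes tested there, and 1 of 7 (Ntrk3) lower, beside 6.61%. With all libraries, the same 5 genes did not overlap between the groups: 1 of 7 lay above every +/+ library, beside 12.1% of all genes, and 4 of 7 below, beside 11.6%. In fl/+ against +/+, 0 of 7 were higher and 1 of 7 (Ntrk3) lower at an unadjusted p under 0.05, beside 2.16% and 2.86% of all genes. There 0 of 7 lay wholly above and 1 of 7 (Ntrk3) wholly below the +/+ libraries, beside 5.56% and 5.97%. Between fl/fl and fl/+, 1 of 7 (Bdnf) was higher and 0 of 7 lower at an unadjusted p under 0.05, beside 1.86% and 2.16%, and 1 of 7 (Bdnf) lay above and 2 of 7 (Ret and Gfra1) below every fl/+ library, beside 10.2% and 9.57%. The median log2 fold change of the 7 genes was -0.23, -0.06 and -0.12 in these 3 comparisons, beside -0.0031, -0.0071 and 0.0014 over all genes tested. Shares of all genes for 1 genotype lying wholly above or below the other 2 together were not counted, here or for genes named below.

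**Figure D2:**
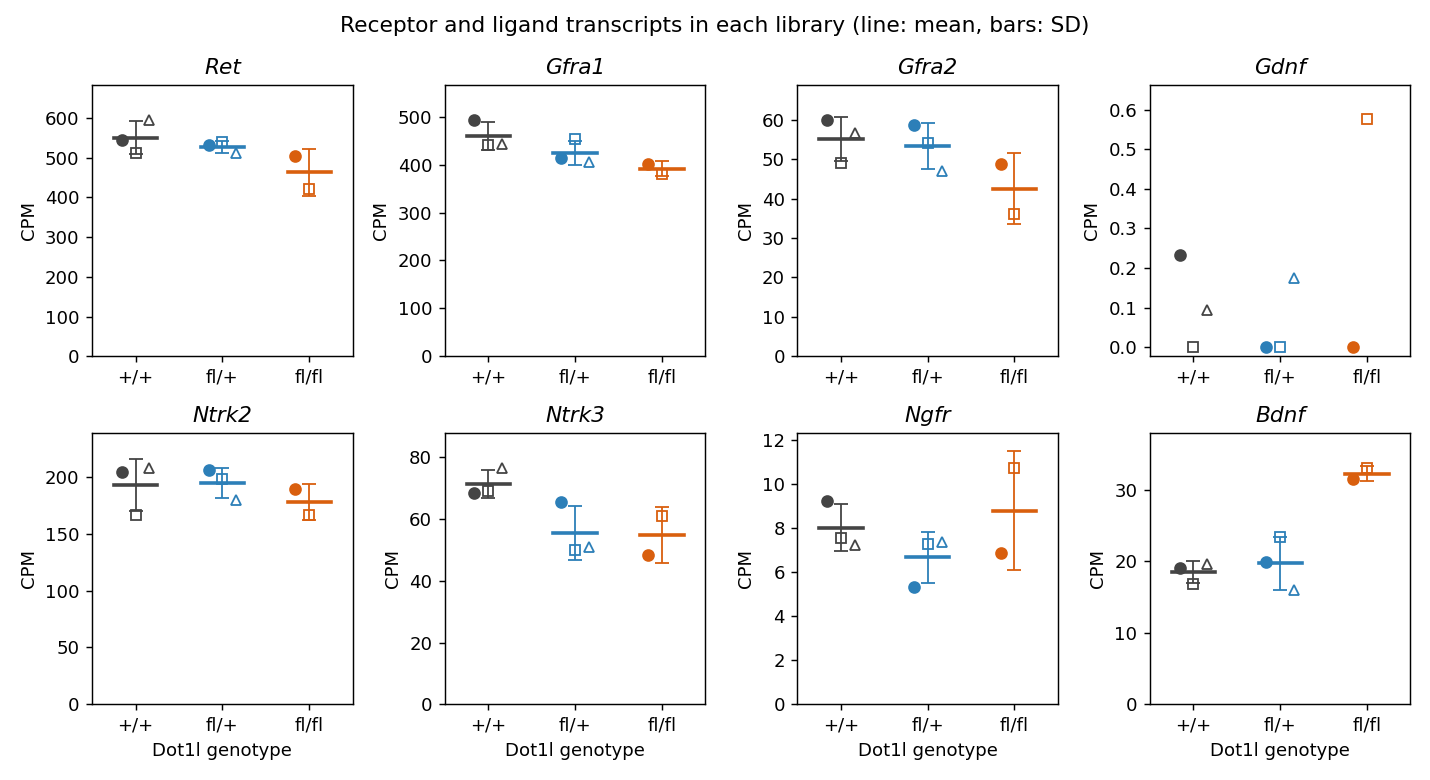
CPM of the 8 genes in each library by Dot1l genotype, with the mean as a line and the SD as bars (n = 3, 3 and 2; Gdnf is shown without mean and SD). Filled circles, open squares and open triangles are replicates 1, 2 and 3; both fl/fl points of Bdnf lie above 31 CPM and all 6 other points below 24 CPM.

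Bdnf, the ligand of TrkB, lies on chr2:109674700-109727007 (GRCm38, plus strand). Its level was 19.1, 16.9 and 19.7 CPM in +/+, 19.9, 23.4 and 15.99 CPM in fl/+, and 31.6 and 33.1 CPM in the libraries labelled fl/fl, from 455 to 852 counts a library. Both libraries labelled fl/fl were thus higher than all 6 others, and the other 2 genotypes overlapped. The means were 18.6 ± 1.51 (SD, n = 3), 19.7 ± 3.69 (SD, n = 3) and 32.3 ± 1.03 CPM (SD, n = 2). In edgeR's fit fl/fl was 1.74-fold over +/+, a log2 fold change of 0.80 (SE 0.20, adjusted p = 0.205), and 1.64-fold over fl/+, a log2 fold change of 0.71 (SE 0.20, adjusted p = 0.971). fl/+ differed from +/+ by 0.09 (SE 0.18, adjusted p = 0.997).

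Without the library labelled fl/fl 2, the log2 fold change of Bdnf against +/+ was 0.77 (SE 0.25, adjusted p = 0.18, edgeR), and over all left-out libraries it lay between 0.74 and 0.85. The adjusted p ran from 0.0334, with no filter on low counts, to 0.674 over the alternatives. DESeq2, which gave no adjusted p for this gene, put the log2 fold change at 0.80 (SE 0.21, unadjusted p = 0.000163). The sums of the DA, GABAergic and red blood cell markers and the library totals moved with the same genotype. Their part in the values of Bdnf, and in those of Ret, Gfra1, Gfra2 and Ntrk3, was not tested. Bdnf shares 896 exonic bases with the antisense gene Gm45346, and since the strand setting of the counting was not given in the sources used here, reads of both genes may stand in the Bdnf count.

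Bdnf is known as a gene that neurons switch on with activity through several alternative start sites, so genes that respond to activity or to receptor signalling were set beside it. Per the study's methods the midbrains were dissociated with papain before sorting, and the part of that step in these levels was not tested. All 18 genes of this list were tested, and edgeR called 0 in each comparison. For fl/fl against +/+, 3 of 18 were higher and 1 of 18 lower at an unadjusted p under 0.05, beside 4.24% and 5.03% of all genes. The list's median was 0.29 (log2 fold change), against -0.0031 for the whole table. Vgf, a secreted neuropeptide precursor, was at 55.0, 52.7 and 40.7 CPM in +/+, 50.1, 58.7 and 52.8 CPM in fl/+, and 74.6 and 76.4 CPM in the libraries labelled fl/fl. Fos, an immediate early transcription factor, was at 221, 239 and 192 CPM, at 248, 236.5 and 202 CPM, and at 280.2 and 271 CPM in the same order. Junb, a partner of Fos, was at 60.9, 50.9 and 31.3 CPM, at 55.9, 41.4 and 49.5 CPM, and at 68.5 and 70.5 CPM. In all 3 genes, as in Bdnf, both libraries labelled fl/fl lay above the 6 others, and they did in Etv1, an ETS transcription factor (unadjusted p over 0.05). The share of all genes with this pattern was not counted. Of the 18 genes, 5 lay above every +/+ library (these 4 and Spry1, a feedback inhibitor of receptor tyrosine kinases), beside 12.1% of all genes, and 3 lay below (Spred1, Spred2 and Dusp4), beside 11.6%.

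The log2 fold changes in fl/fl against +/+ were 0.61 for Vgf (SE 0.15, adjusted p = 0.18), 0.34 for Fos (SE 0.11, adjusted p = 0.289) and 0.55 for Junb (SE 0.19, adjusted p = 0.331) in edgeR. Vgf was the 1 gene of the 18 that DESeq2 called (adjusted p = 0.0144), beside 197 genes over the whole table, whose share was not counted. The adjusted p of Vgf over the alternatives ran from 0.0144 to 0.755. Without the library labelled fl/fl 2 the values were 0.59, 0.37 and 0.53. Junb was at 0.32 without +/+ 3, and Fos at 0.25 with length and GC offsets and 0.14 with these and the replicate block, so that neither kept an unadjusted p under 0.05 there. The fitted value was below 0 for 6 of the 18. Egr1, another immediate early gene, differed by -0.06 on the log2 scale (SE 0.18), while Spred1, an inhibitor of Ras signalling, was lower at -0.38 (SE 0.17, adjusted p = 0.477), with 31.7 and 38.7 CPM against 44.6 to 47.1 CPM in +/+, and at -0.25 without fl/fl 1 and -0.54 without the library labelled fl/fl 2. Dusp4, a MAP kinase phosphatase and, with Fos and Junb, among the 3 highest of the list per length, was at 174 and 203 CPM against 215 to 222 CPM.

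Against fl/+, 4 of 18 genes (Vgf, Fos, Junb and Arc) were higher at an unadjusted p under 0.05 and 0 lower, beside 1.86% and 2.16% of all genes, and the list's median was 0.37 (log2 fold change). In that comparison 7 of 18 lay above every fl/+ library and 1 below, beside 10.2% and 9.57%. Arc, a synaptic immediate early gene, was at 9.44, 5.76 and 5.97 CPM in fl/+ and 12.5 and 9.72 CPM in the libraries labelled fl/fl, and overlapped with +/+ at 6.31 to 9.99 CPM. In fl/+ against +/+, 0 of 18 were higher and 1, Etv4, an ETS transcription factor, lower at an unadjusted p under 0.05, at 0.437 to 1.37 CPM against 0.540 to 4.44 CPM, so that the groups overlapped. The shares of all genes were 2.16% and 2.86%, and the median of the list was -0.04.

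**Figure D3:**
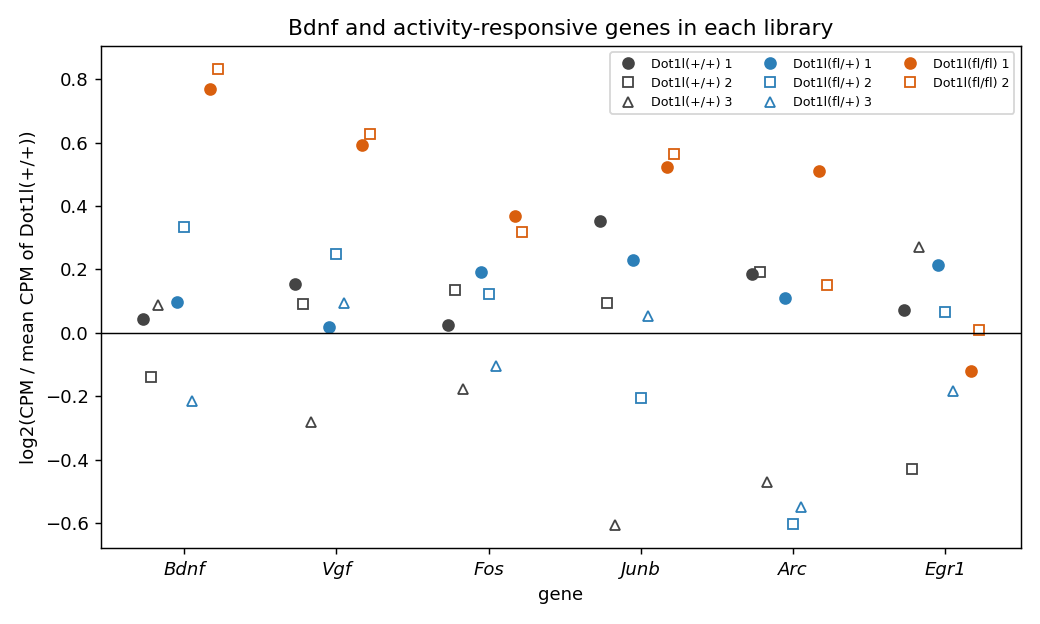
Log2 of CPM over the mean CPM of +/+ for Bdnf and 5 genes of the list of 18 in each library, with colours for genotype and markers for replicates. Vgf, Fos, Junb and Arc were picked for an unadjusted p under 0.05 (edgeR), and Egr1 after its values were seen. Over all 18 the fitted value in fl/fl against +/+ was above 0 for 12 and below 0 for 6. Both fl/fl points lie above all 6 others for Bdnf, Vgf, Fos and Junb, but not for Arc or Egr1.

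Promoter sequence was available in the RefSeq tables (GRCm38.p6, from 250 bases before to 50 after an annotated start) for 5 of the 8 genes: Gfra1, Ntrk2 and Ngfr with 1 window each, Gdnf with 2 and Bdnf with 7. The letters TGACG, the core of the cyclic AMP response element that CREB binds, were searched on both strands. They occur in 20.8% of all 32851 windows, and the full palindrome TGACGTCA, which contains them, in 1.79%. Of the 7 Bdnf windows 1 held TGACG, that at chr2:109692186-109692485 on the plus strand, where the match begins 35 bases before the start site. The window of Fos, at chr12:85473640-85473939 on the plus strand, held 2 matches, beginning 129 and 66 bases before the start. That of Junb held 1 match, that of Slc6a3 held none, and Vgf had no window. Of the 2 Gdnf windows 1 held a match, beginning 50 bases before the start, and the windows of Gfra1, Ntrk2 and Ngfr held none. Windows of genes with lower values in fl/fl than in +/+ held matches too: that of Th (log2 fold change -0.39, SE 0.10, adjusted p = 0.206, edgeR) held the full palindrome, and that of Nr4a2 (-0.40, SE 0.09, adjusted p = 0.16) held 4 matches. The Bdnf and Fos windows are shown to let the matched letters be read, Fos being a gene of the activity list with higher values like Bdnf, with the matches in capitals on the gene's strand, 5′ to 3′.
Bdnf: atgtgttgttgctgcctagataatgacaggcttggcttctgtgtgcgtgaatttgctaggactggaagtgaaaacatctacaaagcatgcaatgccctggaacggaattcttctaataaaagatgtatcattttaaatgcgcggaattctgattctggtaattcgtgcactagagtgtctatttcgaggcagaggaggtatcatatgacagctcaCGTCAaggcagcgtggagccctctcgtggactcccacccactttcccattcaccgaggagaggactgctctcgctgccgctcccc
Fos: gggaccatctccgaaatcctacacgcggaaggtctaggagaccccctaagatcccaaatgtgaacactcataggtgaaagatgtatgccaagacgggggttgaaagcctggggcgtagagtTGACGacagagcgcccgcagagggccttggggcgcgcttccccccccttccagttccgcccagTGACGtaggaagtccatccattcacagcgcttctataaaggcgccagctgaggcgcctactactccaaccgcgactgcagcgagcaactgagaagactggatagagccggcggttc
A match is a description of these letters and not a bound site. The counts are per gene, so the Bdnf start site used in these neurons was not measured.

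Gdnf (chr15:7810846-7837575, plus strand) gave 23 counts in all 8 libraries together. It had 6, 0 and 4 counts in +/+, 0, 0 and 5 in fl/+, and 0 and 8 in the libraries labelled fl/fl, so 4 libraries were at 0. A count of 0 allows up to 3 counts, which is 0.0854 CPM in +/+ 2, 0.101 and 0.105 CPM in fl/+ 1 and 2, and 0.164 CPM in fl/fl 1, covering counting error only. No difference between genotypes was detectable at this depth. The other ligands of RET were also low. Nrtn (neurturin) reached 1.79 CPM in 1 library and at most 0.351 CPM in the 7 others, and Artn (artemin) at most 0.825 CPM. Gdf15 reached at most 0.502 CPM, and Pspn (persephin) had 0 counts throughout. Of these 5 ligand genes 3 were tested and edgeR called 0. In all 3 comparisons 0 had an unadjusted p under 0.05, beside 1.86% to 5.03% of all genes in each direction. The medians of the 3 ligand genes were 0.13, -0.97 and 1.39 on the log2 scale, from 39 to 102 counts a gene in all libraries.

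Ret, the shared signalling kinase of the GDNF family, lies on chr6:118151745-118197718 (minus strand). Its level was 545, 512 and 594 CPM in +/+, 532, 538.5 and 511 CPM in fl/+, and 505 and 421 CPM in the libraries labelled fl/fl. Both of the latter were below all 6 others, fl/fl 1 by a small margin. The means were 550.4 ± 41.5 (SD, n = 3), 527 ± 14.3 (SD, n = 3) and 463 ± 59.1 CPM (SD, n = 2). The log2 fold change of fl/fl over +/+ was -0.25 (SE 0.10, adjusted p = 0.394, edgeR), which is 15.9% lower. It was -0.13 (adjusted p = 0.756) without the library labelled fl/fl 2 and -0.39 (adjusted p = 0.249) without fl/fl 1, so the size rested on which library was kept. Against fl/+ it was -0.19 (SE 0.10, adjusted p = 0.998), and fl/+ over +/+ was -0.06 (SE 0.09, adjusted p = 0.997).

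Gfra1, the preferred co-receptor of GDNF, lies on chr19:58235604-58455909 (minus strand) and shares 416 exonic bases with the antisense gene Gm16277. It was at 492.5, 442 and 442 CPM in +/+, 415, 453.5 and 406 CPM in fl/+, and 402 and 381 CPM in the libraries labelled fl/fl, again below all 6 others. The means were 459 ± 29.2 (SD, n = 3), 425 ± 25.4 (SD, n = 3) and 392 ± 14.8 CPM (SD, n = 2). fl/fl over +/+ gave a log2 fold change of -0.23 (SE 0.09, adjusted p = 0.444, edgeR), with -0.27 to -0.18 over the left-out libraries, -0.19 without the library labelled fl/fl 2. The other 2 comparisons gave -0.11 for fl/+ over +/+ and -0.12 for fl/fl over fl/+, with adjusted p of 0.966 and 0.998. The ratio of Gfra1 to Ret per exonic length stayed between 0.918 and 1.12 in the 8 libraries and overlapped between all genotypes.

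Gfra2 (chr14:70890120-70979838, plus strand) was at 59.9, 48.9 and 56.7 CPM in +/+, 58.6, 54.2 and 47.0 CPM in fl/+, and 48.8 and 36.1 CPM in the libraries labelled fl/fl. fl/fl 1 lay only just below the lowest +/+ library and above the lowest fl/+ library. The log2 fold change of fl/fl over +/+ was -0.38 (SE 0.16, adjusted p = 0.464, edgeR), but -0.18 (adjusted p = 0.823) without the library labelled fl/fl 2 and -0.61 (adjusted p = 0.388) without fl/fl 1. It was -0.33 (SE 0.16) over fl/+, and -0.05 (SE 0.14) for fl/+ over +/+, with adjusted p of 0.998 and 0.997.

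The wider set of GDNF family receptors held 8 genes, of which 7 were tested and 0 called by edgeR. In fl/fl against +/+, 4 of 7 were lower at an unadjusted p under 0.05 (Ret, Gfra1, Gfra2 and Ncam1, the first 3 counted above) and 0 higher, beside 5.03% and 4.24% of all genes, with a median of -0.23. Ncam1, the neural cell adhesion molecule that can act as a RET-independent GDNF receptor, was at 1288, 1106 and 1368 CPM in +/+ against 1064 and 988 CPM, a log2 fold change of -0.29 (SE 0.09, adjusted p = 0.281), and -0.24 without the library labelled fl/fl 2. The proteoglycan Sdc3, which binds GDNF, was the highest of the set per length at a median of 198 CPM per kilobase, with a log2 fold change of -0.10 (SE 0.09, adjusted p = 0.823). In fl/+ against +/+, 2 of 7 were higher at an unadjusted p under 0.05 and 0 lower, beside 2.16% and 2.86% of all genes, with a median of -0.05. These were Gfra4, the persephin co-receptor, at 26.7, 17.2 and 20.8 CPM against 15.4, 11.8 and 17.6 CPM, with overlapping groups and a log2 fold change of 0.53 (SE 0.21, adjusted p = 0.94), and Gfra3, the artemin co-receptor, which had counts only in 2 libraries, both fl/+, at 0.370 and 1.09 CPM. Between fl/fl and fl/+ 0 of 7 were higher and 0 lower at an unadjusted p under 0.05, beside 1.86% and 2.16%. The median there was -0.19. Gfral, the receptor of GDF15, was at 0 in all libraries.

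Ntrk2, which encodes the BDNF receptor TrkB, lies on chr13:58806569-59133970 (plus strand). It was at 204, 167 and 207 CPM in +/+, 206, 198 and 179.9 CPM in fl/+, and 189 and 166.5 CPM in the libraries labelled fl/fl, so all 3 genotypes overlapped. The means were 193 ± 22.6 (SD, n = 3), 195 ± 13.4 (SD, n = 3) and 178 ± 16.1 CPM (SD, n = 2). The log2 fold change was -0.12 (SE 0.12, adjusted p = 0.845, edgeR) for fl/fl over +/+, 0.01 (SE 0.10) for fl/+ over +/+ and -0.13 (SE 0.12) for fl/fl over fl/+. The first was -0.03 without the library labelled fl/fl 2, and became 0.04 with offsets for exon length and GC content. The genotypes thus differed by less than the spread between libraries in the gene of the BDNF receptor.

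Ntrk3, which encodes the neurotrophin-3 receptor TrkC, lies on chr7:78175959-78738012 (minus strand). It was at 68.3, 69.2 and 76.4 CPM in +/+, 65.6, 49.98 and 50.8 CPM in fl/+, and 48.4 and 61.1 CPM in the libraries labelled fl/fl. All 5 libraries with a floxed allele were below all 3 without one, and the floxed genotypes overlapped with each other. The means were 71.3 ± 4.45 (SD, n = 3), 55.5 ± 8.78 (SD, n = 3) and 54.7 ± 9.02 CPM (SD, n = 2). The log2 fold change over +/+ was -0.38 (SE 0.15, adjusted p = 0.403, edgeR) for fl/fl and -0.36 (SE 0.13, adjusted p = 0.94) for fl/+, from the same 3 +/+ libraries, and -0.02 (SE 0.15) between the floxed genotypes. In the first of these it was -0.56 without the library labelled fl/fl 2 and -0.22 without fl/fl 1, with adjusted p of 0.174 and 0.915. It was -0.23 with length and GC offsets and -0.21 with these and the replicate block, without an unadjusted p under 0.05 in either. Among the 4 receptor genes that were lower in fl/fl, Ntrk3 was the 1 where the fl/+ libraries were also wholly below +/+. Whether that differs from the other receptors was not tested.

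Ngfr, which encodes the p75 neurotrophin receptor, lies on chr11:95568818-95587735 (minus strand). It was at 9.26, 7.57 and 7.26 CPM in +/+, 5.34, 7.31 and 7.38 CPM in fl/+, and 6.89 and 10.7 CPM in the libraries labelled fl/fl, from 126 to 314 counts a library. All genotypes overlapped. The log2 fold change of fl/fl over +/+ was 0.13 (SE 0.30, adjusted p = 0.966, edgeR) and turned to -0.22 without the library labelled fl/fl 2. It was -0.26 (SE 0.27) for fl/+ over +/+ and 0.40 (SE 0.30) for fl/fl over fl/+, with adjusted p of 0.995 and 0.998.

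**Figure D4:**
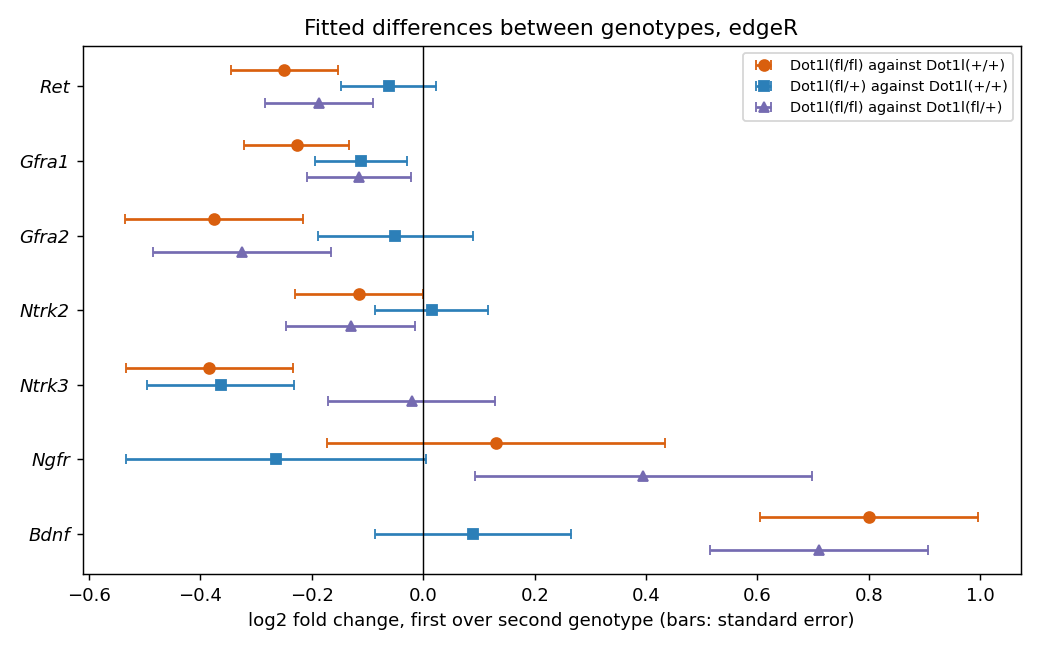
Log2 fold changes (first over second genotype) of the 7 tested genes in edgeR's fit, with the standard error as bars and a colour and marker for each comparison. Bdnf lies near 0.8 and 0.7 in the comparisons that hold fl/fl, and the receptors lie between -0.4 and 0.4.

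Other neurotrophin ligands were low. Ntf3, neurotrophin-3, was at 3.60 to 8.20 CPM, with overlap of +/+ and the libraries labelled fl/fl, and Ntf5 had 0 counts. Of the 4 ligands 3 were tested and edgeR called 0. Bdnf was the 1 of 3 with an unadjusted p under 0.05, higher in the 2 comparisons that hold fl/fl. There 4.24% (against +/+) and 1.86% (against fl/+) of all genes were higher. The list's medians were 0.31, 0.09 and -0.28 in fl/fl against +/+, fl/+ against +/+ and fl/fl against fl/+. Of 16 symbols listed as neurotrophin receptors and co-receptors 15 were found and tested, and edgeR called 0. Between fl/fl and +/+, 1 of 15 was higher (Ngfrap1, a p75-binding protein, log2 fold change 0.24, SE 0.11, adjusted p = 0.494) and 1 lower (Ntrk3) at an unadjusted p under 0.05, beside 4.24% and 5.03% of all genes. Ngfrap1 was at 0.28 without the library labelled fl/fl 2 and at 0.17 without +/+ 3. Its groups overlapped, with +/+ 2 at 349 CPM and the library labelled fl/fl 2 at 347 CPM. Ngfrap1, Maged1, which binds p75, and Kidins220, a Trk substrate, were the highest of the list per length, at medians of 352, 341.5 and 112 CPM per kilobase. The medians of log2 fold changes were -0.12, -0.03 and -0.04. In fl/+ against +/+ Ntrk3 was the 1 of 15 lower at an unadjusted p under 0.05, with none higher. The shares of all genes there were 2.86% and 2.16%. Between fl/fl and fl/+ there were 0 higher and 0 lower, beside 1.86% and 2.16%.

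Downstream of the receptors, 40 adaptor and proximal signalling genes were tested and edgeR called 0. For fl/fl against +/+, 4 of 40 were lower and 1 higher at an unadjusted p under 0.05, beside 5.03% and 4.24% of all genes, with a median of -0.09. The lower ones were the docking protein Irs1 (-0.36, SE 0.14), the adaptor Gab2 (-0.29, SE 0.12), the phosphatase Ptpn11 (-0.27, SE 0.11) and the PI3-kinase subunit Pik3r1 (-0.27, SE 0.11), and the higher one was the GTPase Hras (0.25, SE 0.12), with adjusted p from 0.398 to 0.527. In the same order these 5 were at -0.48, -0.20, -0.22, -0.28 and 0.31 without the library labelled fl/fl 2. Irs1 was also lower in fl/+ against +/+, at 48.0 to 58.8 CPM against 66.0 to 75.0 CPM (log2 fold change -0.35, SE 0.12, adjusted p = 0.94), and was the 1 of 40 there, beside 2.86% of all genes, with a median of -0.08. Between fl/fl and fl/+ there were 0 of 40 higher and 0 lower, beside 1.86% and 2.16%. The median there was -0.0065. Akt1, Mapk3 and Grb2, the highest per length, had log2 fold changes of -0.03, -0.03 and 0.11 in fl/fl against +/+, with adjusted p from 0.831 to 0.984.

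Receptors and ligands of other trophic systems gave 0 of 20 called by edgeR. At an unadjusted p under 0.05, 4 of 20 were lower in fl/fl against +/+ and 0 higher, beside 5.03% and 4.24% of all genes, with a median of -0.06. These were the insulin receptor Insr (-0.42, SE 0.14), the neuregulin receptor Erbb4 (-0.39, SE 0.13), the IGF1 receptor Igf1r (-0.39, SE 0.13) and the FGF receptor Fgfr3 (-1.24, SE 0.52), with adjusted p from 0.294 to 0.446. Without fl/fl 1 the first 3 were at -0.27, -0.21 and -0.21, and without the library labelled fl/fl 2 at -0.59, -0.60 and -0.60, with Fgfr3 at -1.38. Fgfr3 was low, at 3.28, 5.98 and 5.67 CPM in +/+, 1.65, 1.16 and 2.60 CPM in fl/+, and 1.91 and 2.30 CPM in the libraries labelled fl/fl. All 5 libraries with a floxed allele lay below the 3 +/+ libraries, and the log2 fold change of fl/+ was -1.47 (SE 0.44, adjusted p = 0.94). At an unadjusted p under 0.05 that comparison had 1 of 20 lower and 1 higher, beside 2.86% and 2.16% of all genes. The list's median there was -0.03. The higher one was the neuregulin receptor Erbb3, at 0 in all +/+ libraries and at 0, 0.949 and 0.562 CPM in fl/+. Between fl/fl and fl/+ there were 0 of 20 higher and 0 lower, beside 1.86% and 2.16%. The median there was 0.04. Manf and Cntfr, with Erbb4 the highest per length, had log2 fold changes of 0.23 and 0.14 in fl/fl against +/+, with adjusted p of 0.587 and 0.884.

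The genes whose log2 CPM most resembled each receptor or ligand over the 8 libraries were taken from 9953 genes with a mean of at least 10 CPM, as a description. For Ret they were Spock2 (r = 0.99, rho = 1.0), Efnb3 (r = 0.98) and Tnfrsf21 (r = 0.97), with r of 0.97, 0.81 and 0.81 once the 2 libraries farthest from the median were left out. Gfra1 went with Smpd3 (0.96), Dgke (0.96) and Zfp316 (0.95), and Gfra2 with Ssbp3 (0.99), Magee1 (0.98) and Cplx2 (0.97). For the neurotrophin receptors they were Ikbkap (0.97), Aldh5a1 (0.96) and Cabin1 (0.96) for Ntrk2, Plagl1, Slc35e2 and Ebf3 (each 0.97) for Ntrk3, and Msh3, Gm6421 and Prdm11 (each 0.94) for Ngfr. Bdnf went with Thoc5 (0.95, rho = 0.83) and Mtmr6 (0.94, rho = 0.90), and r without both libraries labelled fl/fl was 0.73 and 0.88. The points share libraries and depth, and with 8 libraries the gene in the 50th place still had r = 0.92 for Ret and 0.82 for Bdnf.

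**Figure D5:**
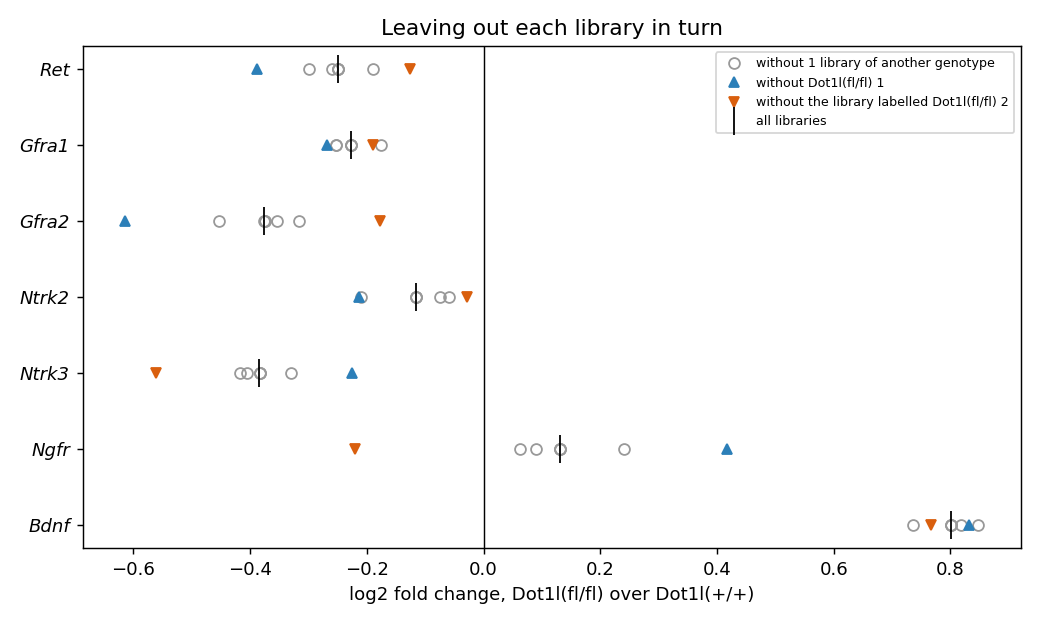
Log2 fold change of fl/fl over +/+ for the 7 tested genes with all libraries (vertical tick) and with each library left out. Bdnf stays between 0.74 and 0.85, Ret, Gfra1, Gfra2, Ntrk2 and Ntrk3 stay below 0, and Ngfr falls on both sides of 0 depending on the library labelled fl/fl 2.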

How the data were processed

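Raw counts of reads for each Ensembl gene were deposited for 8 of 9 labelled samples; Dot1l(fl/fl) 3 was not analysed here. Per the study's methods libraries were made with a strand-preserving kit and mapped to GRCm38.p4; aligner, counter and strand setting are not given in the sources used here. The submitters' processing notes list bcl2fastq 2.17, Trimmomatic 0.30 and DESeq2 1.10.1. The authors' own comparison tables hold fold changes and p-values; only their identifiers and symbols were used.

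Counts were tested with edgeR 4.0.16 (R 4.3.3): TMM factors, filterByExpr, glmQLFit on all 3 genotypes without covariates, Benjamini-Hochberg adjustment over 17988 genes, threshold 0.05. The scripts were tested on simulated data. Exon lengths and positions came from GENCODE M21 (GRCm38), promoter windows from RefSeq. Alternatives were other normalisations and filters, DESeq2 1.42.0, fewer groups, a replicate block, length and GC offsets, and leaving out each library. Replicates are pools of embryos, so p-values measure the spread between pools. Library pairs within a genotype differed beyond sampling noise (chi-square per degree of freedom 17.0 to 40.5).

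The genes and lists were chosen with earlier results of these data known. Named were the 8 genes and Dot1l, 4 DA markers, genes of the pathway lists with an unadjusted p under 0.05 in any comparison or among the 3 highest per length, the leading gene of each marker list, and the 3 genes most like each tested gene. Egr1, Etv1, Spry1, Spred2 and the genes at 0 counts were chosen after their values were seen. A few genes that this rule names are not reported here.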

Additional observations from a re-analysis of the deposited data

How the results depend on the processing

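Genes called over the whole table were 0 with edgeR in each comparison. For fl/fl against +/+ the count was 106 with no filter, 2 with a mean count of at least 50, 197 with DESeq2, 6 with the replicate block and 16 with the replicate block plus length and GC offsets, and 0 to 75 with each library left out: 75 without +/+ 2, 50 without the library labelled fl/fl 2 and 4 without fl/fl 1. For fl/fl against fl/+ it was 14 with no filter, 1 with DESeq2, 4 and 9 with the block without and with offsets, and 0 to 7 over left-out libraries, 7 without either library labelled fl/fl. For fl/+ against +/+ it was 11 with no filter and 0 over left-out libraries. Among pathway genes DESeq2 called 1, Vgf, in fl/fl against +/+. Same-numbered libraries deviated with correlations of -0.031 to 0.0453, and the labels do not say that a number marks the litters of a set, so the numbers were not taken as pairs. The block changed no call among the 7 genes. The cause of these differences was not tested.

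Of 119 log2 fold changes of the 7 genes under alternatives in each comparison, 115, 114 and 115 kept direction and side of the threshold in fl/fl against +/+, fl/+ against +/+ and fl/fl against fl/+. Bdnf passed in the first with no filter. DESeq2 gave Bdnf and Ngfr no adjusted p in that comparison, so under DESeq2 they were counted there by direction only. Turned in sign were, in the first, Ntrk2 (0.04 with offsets, 0.02 with block and offsets) and Ngfr (-0.22 without the library labelled fl/fl 2, up to 0.42 over left-out libraries). In the second these were Gfra2 (0.01 without +/+ 1, 0.03 without fl/+ 3, down to -0.13), Ntrk2 (-0.08 without +/+ 2, -0.03 without fl/+ 1, up to 0.07) and Bdnf (-0.05 without fl/+ 2, up to 0.22). In the third it was Ntrk3 (0.06 with offsets, 0.08 with block and offsets, 0.12 without fl/+ 1, 0.13 without fl/fl 1, down to -0.20). Where fl/fl was left with 1 library, its spread was assumed to be that of the other groups. Low counts limit Gdnf, which lay near the floor of 3 counts, and the other RET ligands. Nrtn was at 1.79 CPM in +/+ 2, where 3 counts are 0.0854 CPM, but at 0 in +/+ 3, the library with the highest total.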
